A study of Homo sapiens with 27 samples.

Results

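The genes described here are the 82 protein-coding collagens, laminins and integrins of a count table of 60619 Ensembl genes. By their symbols they were 44 collagen chains, 12 laminin chains and 26 integrin subunits.

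The genes were measured by RNA-Seq in 2 cell lines of invasive lobular breast carcinoma (ILC), MM134 (MDA-MB-134VI) and SUM44, as parental cells and as long-term estrogen-deprived (LTED) variants. MM134 parental, SUM44PE and SUM44F were the parental groups, and their cells were deprived of hormone for 3 days in IMEM with charcoal-stripped serum before collection. SUM44F came from SUM44PE through a change of medium and was the parental line of the SUM44 variants. The variants LTED-A, LTED-B, then LTED-D and LTED-E of MM134, and LTED-A with LTED-B of SUM44, were estrogen-independent clones that emerged over months in the same stripped serum and were kept in it. Each variant is 1 derived line, and the 3 libraries of a group are wells seeded from it. All 9 groups thus share the stripped serum at collection and differ in how long they had grown in it, so the comparisons with parental cells ask what differs after long adaptation and not after hormone withdrawal alone. The p-values measure the spread between these wells and do not speak for other derivations.

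Collagens are matrix proteins wound from 3 chains. Some form fibrils (types I, II, III and V), some lie on the surface of fibrils (types IX, XII, XVI, XX and XXII), type IV forms the network of basement membranes, and type XVII is a membrane protein of hemidesmosomes, the junctions that fix an epithelial cell to its basement membrane. Laminins are basement membrane trimers of an alpha, a beta and a gamma chain. Integrins are receptors of an alpha and a beta subunit through which a cell holds laminin, collagen or fibronectin. ITGA6 with ITGB4 binds laminin in hemidesmosomes, ITGAV with ITGB5, ITGB6 or ITGB8 binds RGD ligands, and the ITGB2 integrins are known from leukocytes.

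Depth was 28583554 to 134882175 counts per library, with a median of 44018412. The SUM44 LTED-A libraries 2 and 3 differed by less than sampling noise and were counted as 1 sample, so that variant has n = 2 and all other groups have n = 3. The 8 luminal epithelial markers (such as KRT8, KRT18 and EPCAM) were detected in all 26 samples. Levels are in CPM, a library's counts scaled to a common total, after TMM normalization over all groups. In bulk RNA, fewer cells of a type and less RNA per cell cannot be told apart.

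The libraries that stood apart were 3, namely SUM44F replicate 1, MM134 parental replicate 3 and MM134 LTED-D replicate 2. The 8 fibroblast markers summed to 9.66 to 125 CPM in them and to 3.75 to 8.39 CPM in the other 23 samples, with 6 to 8 of the 8 markers detected in the former and 3 to 6 in the latter. LUM (lumican, a fibroblast proteoglycan) was at 57.2 CPM in SUM44F 1, 2.79 in MM134 parental 3 and 2.27 in MM134 LTED-D 2, and at most at 0.030 CPM elsewhere. Not all fibroblast markers were raised. In the same order, ACTA2 was at 3.34, 1.52 and 1.35 CPM, within the 1.34 to 3.93 CPM of the other samples. TAGLN was at 2.95, 1.98 and 2.22 CPM, within their 1.70 to 3.58 CPM. FAP also lay within their range in both MM134 libraries, and PDGFRB in MM134 LTED-D 2. Leukocyte markers summed to 1.04 to 7.29 CPM in these libraries and to 0.580 to 1.35 in the others, and the luminal markers to 5334 to 8328 against 5280 to 9768. Endothelial markers summed to 3.34 to 46.5 CPM in the former and 1.997 to 31.7 in the latter. Of the endothelial markers, PECAM1 was at 25.3 CPM ± 3.11 (SD, n = 3) in SUM44F and fell in both SUM44 variants. In MM134 PECAM1 rose in LTED-A, LTED-D and LTED-E (2.21, 0.78 and 1.46 on the log2 scale), and VWF rose in LTED-D (1.95) and fell in LTED-A and LTED-E (-1.97 and -2.09).

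The fibril-forming collagens showed this most plainly. COL3A1, the type III chain, was at 135, 0.703 and 0.468 CPM in the SUM44F libraries and at 0.114, 0.0540 and 5.54 CPM in the MM134 parental ones. COL1A1, a type I chain, was at 85.9, 7.11 and 5.77 CPM in SUM44F. COL4A1, a basement membrane chain, was at 21.9, 0 and 0.0223 CPM there. In each case SUM44F 1 was the only high SUM44F library. Of 61 members at 1 CPM or more in SUM44F, 18 lay over 2-fold above the mean of the other replicates in SUM44F 1 (12 collagens, 3 laminins and 3 integrins), and 0 lay over 2-fold below. The same count was 6 of 51 in MM134 parental 3 and 5 of 54 in MM134 LTED-D 2. Values without these 3 libraries are therefore given beside results that moved. The count over 2-fold was taken for members only, so it does not set them apart from other genes.

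**Figure D1:**
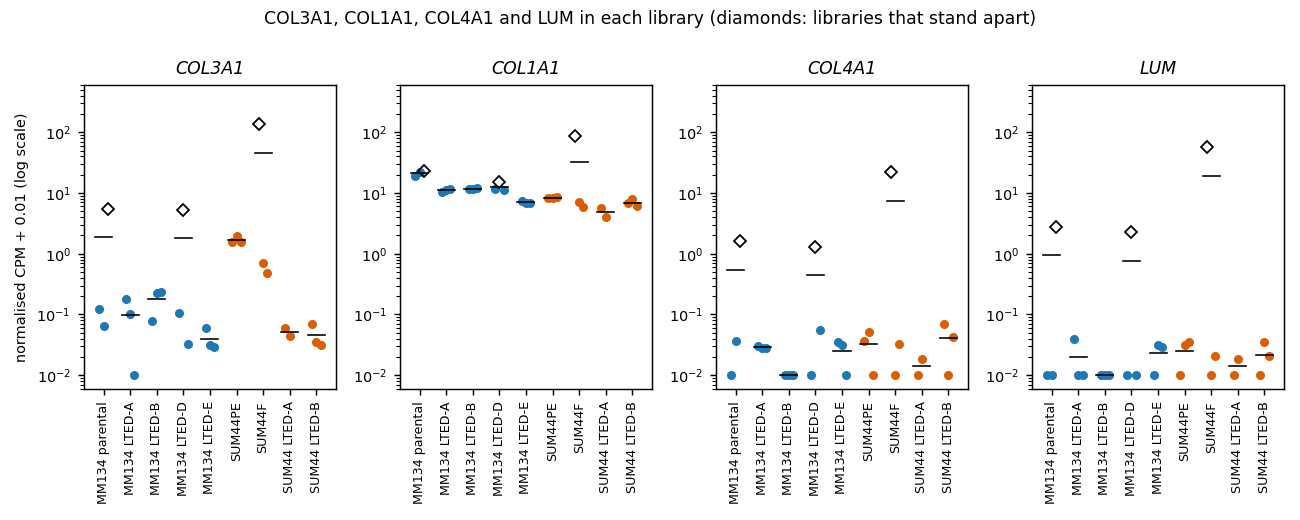
Level of COL3A1, COL1A1, COL4A1 and the fibroblast marker LUM in every sample by group (y axis, normalised CPM + 0.01 on a log axis). Points are samples, bars are group means and diamonds are SUM44F 1, MM134 parental 3 and MM134 LTED-D 2, with COL3A1 at 135 CPM in SUM44F 1 against 0.703 and 0.468 in its replicates.

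Of the 82 members, 67 reached a mean of 1 CPM in at least 1 group (33 collagens, 10 laminins and 24 integrins). Of the other 15, COL6A5 was below detection (at most 3 counts in every library). Levels were compared per kilobase of merged exons, that is, of all annotated exons of a gene together. By this length the leading collagens of MM134 were COL4A5 (7.88 CPM per kb, mean of the groups), COL7A1, the anchoring fibril collagen (4.43), and COL9A2 (4.16). Those of SUM44 were COL9A2 (4.76), COL16A1 (3.96) and COL12A1 (2.12). LAMB2, the beta 2 chain, led the laminins of both lines with 92.4 CPM per kb in MM134, which was 75.7% of the class, and 39.2 in SUM44. LAMC1 (15.0 and 16.0) and LAMA5 (6.05 and 10.2) followed, so by this length the chains of laminin-521 came first. LAMB1 was next (4.98 and 6.41). ITGB5 (33.9), ITGB1 (23.9) and ITGAV (9.40) led the integrins of MM134, and ITGB1 (23.3), ITGB5 (15.9) and ITGA6 (15.1) those of SUM44. These orders depend on the length used, which for some members far exceeds the longest transcript. Merged exons and longest transcript are 18592 and 6737 bp for LAMB1, and 14291 and 11426 bp for LAMA5. For ITGB1 they are 14561 and 5614 bp, and for ITGB5 6515 and 4440 bp. No order by longest transcript is given.

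The LTED variants were compared with their parental cells in 1 fit per cell line, and a gene was called differentially expressed (DE) at a fold change above 1.5 with an adjusted p under 0.001. The cell lines differed in the direction of the calls. In SUM44 LTED-A, 1 member rose and 19 fell of 73 tested (all genes tested, 13.7% called, 6.39% up and 7.28% down). In SUM44 LTED-B, 3 rose and 21 fell (all genes, 17.3%, with 8.69% up and 8.57% down). The median log2 change of the members was -1.10 in both variants, against -0.06 and -0.09 over all genes. Without SUM44F 1 the counts were 1 up and 21 down in LTED-A and 3 up and 23 down in LTED-B, and the medians were -0.70 and -0.64. Of all genes, 12.1% and 15.8% were then called.

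In MM134 the calls went both ways. Of 71 members tested, 13 rose and 16 fell in LTED-A (20.3% of all genes called, 10.5% up and 9.82% down). In LTED-B 15 rose and 16 fell (15.9%, 8.11% and 7.75%), in LTED-D 16 and 12 (17.6%, 9.63% and 7.95%), and in LTED-E 12 and 16 (19.0%, 8.71% and 10.3%). The members' medians lay between -0.22 (LTED-A) and 0.06 (LTED-D), and those of all genes between -0.03 and 0.02. Members DE in at least 1 variant numbered 41 in MM134, 30 in SUM44 and 49 in all (29.9%, 22.0% and 37.6% of all genes tested).

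The calls recurred between variants of a line, which share their parental libraries. In MM134, 25 members changed the same way in at least 3 of the 4 variants (13.5% of all genes), 12 up and 13 down. In both SUM44 variants, 14 changed the same way (8.62% of all genes), 13 of them down. Only ITGA5 rose in both. Between the lines, no member rose in both by these rules, COL16A1 and COL4A5 fell in both, and 6 went opposite ways: COL9A2, ITGAM, ITGB6, LAMB1 and LAMB3 rose in MM134 and fell in SUM44, and ITGA5 fell in MM134 and rose in SUM44. In MM134 LTED-D, however, ITGA5 rose. No such counts between the lines are given for all genes, so these cannot be read as particular to the members. Without the libraries with stromal markers, 26 members were shared in MM134 and 16 in SUM44, counts for which no share of all genes is given. COL6A3, a microfibril chain, was the addition in MM134 (1.45, 1.16 and 1.13 in LTED-A, LTED-B and LTED-E), where it had no call with all libraries (0.23, -0.06 and -0.09). Those in SUM44 were COL3A1 and ITGB3.

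**Figure D2:**
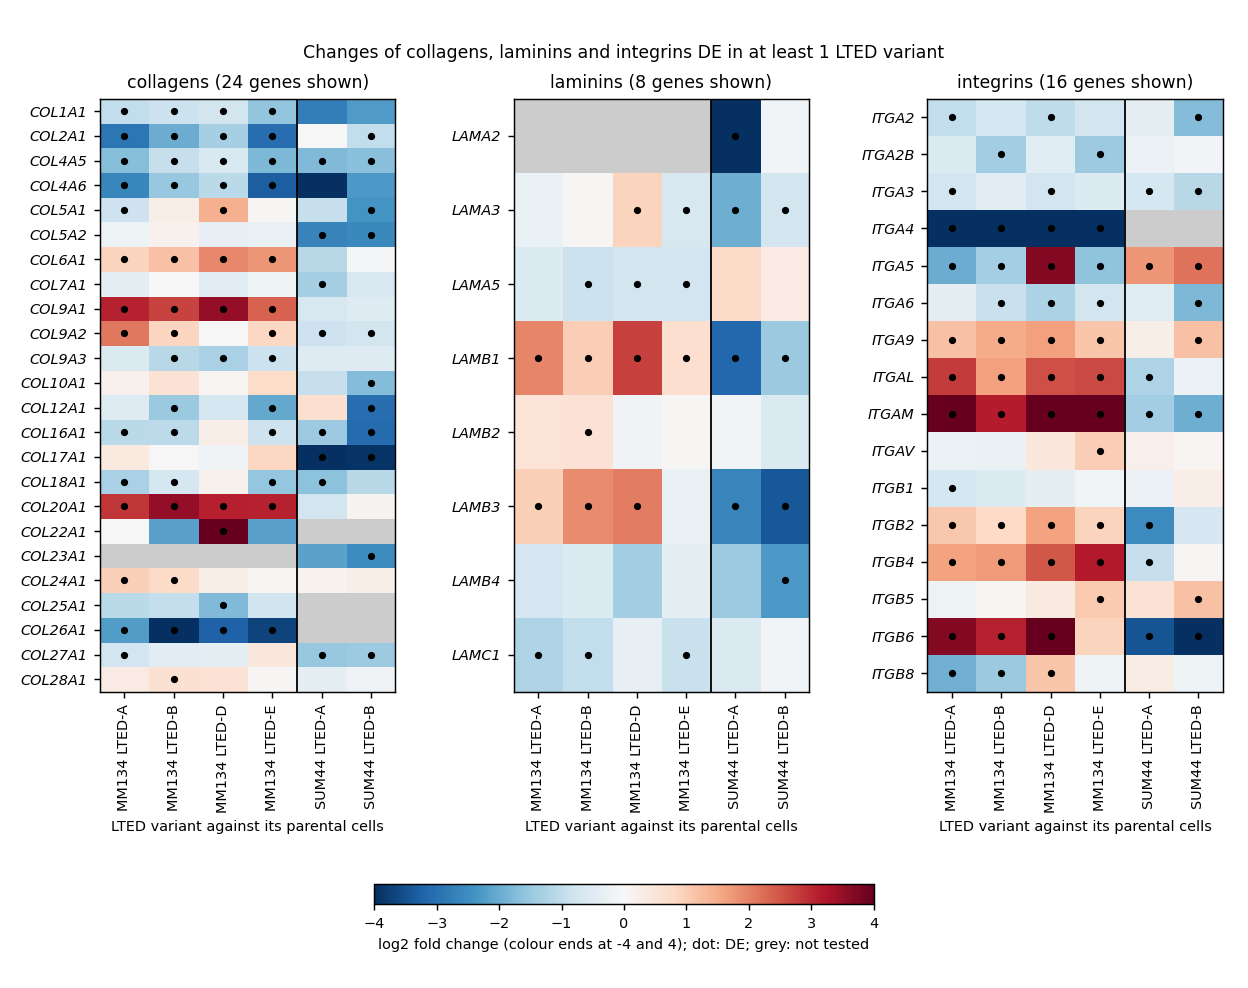
Log2 fold change against parental cells (colour, ends at -4 and 4) of the 24 collagens, 8 of the 9 laminins and the 16 integrins that were DE in at least 1 of the 6 variants, with a dot where the change was called and grey where a gene was not tested. The 2 SUM44 columns are mostly of the lower colour, and the 4 MM134 columns hold both.

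COL4A5, an alpha chain of the type IV network, was the collagen with the highest level per kb in MM134 and fell in all 6 variants. It was at 166, 167 and 172 CPM in MM134 parental cells, and at 52.7, 53.6 and 51.0 in LTED-A, 89.1, 88.1 and 88.8 in LTED-B, 107, 112 and 108 in LTED-D and 52.2, 45.4 and 48.3 in LTED-E. In SUM44F it was at 21.6, 19.7 and 19.6 CPM, and at 5.91 and 6.00 in LTED-A and 6.72, 6.25 and 6.08 in LTED-B. In neither line did any variant library reach the lowest parental library. The log2 changes in MM134 were -1.69 ± 0.04 (SE), -0.92 ± 0.04, -0.61 ± 0.04 and -1.78 ± 0.04 for the variants in the order A, B, D and E, with adjusted p of at most 1.6e-10. Further MM134 values without variant names follow this order. Those in SUM44 were -1.77 ± 0.11 and -1.68 ± 0.09 (adjusted p = 5.55e-07 and 1.98e-07).

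COL4A6 lies head to head with COL4A5 on the X chromosome, with 380 bp between their starts. It fell with COL4A5 in all 4 MM134 variants, from 3.92, 3.40 and 3.79 CPM in parental cells to 0.682, 0.557 and 0.539 in LTED-A, 1.14, 1.11 and 1.59 in LTED-B, 1.68, 1.74 and 1.77 in LTED-D and 0.469, 0.318 and 0.350 in LTED-E. Its log2 changes were -2.62 ± 0.15, -1.53 ± 0.15, -1.08 ± 0.15 and -3.28 ± 0.18, each larger than that of COL4A5 in the same variant. In both genes the changes were larger in LTED-A and LTED-E than in LTED-B and LTED-D. In SUM44F COL4A6 was below 1 CPM in every library. It was lower in SUM44 LTED-A and LTED-B without a call (-4.41 ± 0.82 and -2.29 ± 0.59, adjusted p = 0.00168 and 0.00917). Without SUM44F 1 the log2 changes were -3.79 and -1.68. Of the other head-to-head pairs, COL4A3 and COL4A4 (419 bp apart) were tested and had no call in any variant. COL4A1 (127 bp from COL4A2) did not pass the filter on low counts in either line, and COL4A2 passed it in SUM44, with no call. COL4A2 was at 22.7, 1.78 and 1.20 CPM in SUM44F and at 0.640 to 0.915 in the SUM44 variants, again with SUM44F 1 alone high.

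The 250 bases before the RefSeq start of COL4A5 are printed because they lie between the 2 start sites. They hold the motif CCAAT once on each strand, in capitals, at 247 and 239 bases before the start. They are chrX:108439588-108439837 on the plus strand of GRCh38.p14.

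COL4A5: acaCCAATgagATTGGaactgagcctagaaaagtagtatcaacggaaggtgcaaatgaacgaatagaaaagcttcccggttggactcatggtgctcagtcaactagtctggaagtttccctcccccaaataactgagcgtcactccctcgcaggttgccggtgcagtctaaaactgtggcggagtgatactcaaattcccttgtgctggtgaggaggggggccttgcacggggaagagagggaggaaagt

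Of 35116 RefSeq promoters of this length, 32% hold CCAAT on either strand, as do 16 of the 58 members with a RefSeq entry, so the motif does not set COL4A5 apart. A match is a description of the letters and not a site.

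Type IX collagen, which coats cartilage fibrils, had 1 chain in each pattern in MM134. COL9A1 rose in all 4 variants, from 0.515, 0.567 and 0.356 CPM to between 2.42 and 6.26 CPM, with log2 changes of 3.07, 2.72, 3.50 and 2.36 (SE 0.15 to 0.16). COL9A2 was at 9.84, 7.80 and 8.94 CPM in parental cells and rose in LTED-A (39.3, 38.5 and 38.2 CPM), LTED-B (16.8, 16.0 and 14.8) and LTED-E (16.3, 14.3 and 15.9). In LTED-D it was at 9.30, 8.11 and 8.99 CPM, within the parental range. COL9A3 fell in LTED-B, LTED-D and LTED-E, by 1.10, 1.31 and 0.86 on the log2 scale. In SUM44 COL9A2 fell from 28.3, 30.4 and 28.7 CPM to 15.8 and 16.9 in LTED-A and 16.7, 17.3 and 18.9 in LTED-B (log2 change -0.83 ± 0.09 and -0.73 ± 0.08).

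COL16A1, which associates with fibrils and basement membranes, fell in both SUM44 variants and in 3 of the MM134 ones. It was at 67.5, 70.5 and 62.6 CPM in SUM44F, 22.9 and 25.4 in LTED-A and 8.91, 7.66 and 7.22 in LTED-B. The log2 changes were -1.46 ± 0.10 and -3.08 ± 0.10 (adjusted p = 1.89e-06 and 3.75e-09), and LTED-A lay 1.62 ± 0.10 above LTED-B. In MM134 it fell from 2.66, 2.83 and 2.88 CPM to between 1.23 and 1.68 in LTED-A, LTED-B and LTED-E, while the LTED-D libraries were at 3.20, 3.45 and 3.41.

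Fibril-forming collagens moved in both directions in MM134. COL24A1 rose in LTED-A and LTED-B (0.96 ± 0.09 and 0.77 ± 0.10), and COL5A1 is described among the variants that differ. COL2A1, the cartilage fibril chain, went from 9.64, 9.20 and 9.10 CPM to between 0.914 and 3.93 CPM in all 4 variants (log2 change -2.90, -1.98, -1.32 and -3.04). COL1A1 went from 19.2, 22.4 and 22.6 CPM to between 6.84 and 15.1 CPM in all 4 (log2 change -0.97, -0.86, -0.75 and -1.59). In SUM44 the 85.9 CPM of SUM44F 1 decided the value of COL1A1: its log2 change was -2.77 in LTED-A and -2.26 in LTED-B with all libraries (adjusted p = 0.0576 and 0.0522), and -0.41 and 0.09 without that library (adjusted p = 0.15 and 0.713). COL3A1 went the other way. Its change was not called with all libraries (log2 change -10.10 ± 3.06 and -10.44 ± 2.71, adjusted p = 0.0249 and 0.00951), and was called without SUM44F 1 (-3.81 and -4.14, adjusted p = 0.00041 and 0.000133). COL5A2, a type V chain, fell in both SUM44 variants (-2.68 ± 0.44 and -2.57 ± 0.38, and -2.03 and -1.92 without SUM44F 1), but the call was lost whenever any 1 LTED library was left out (-2.45 to -2.93).

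COL17A1 and COL27A1 also fell in both SUM44 variants. COL17A1, the hemidesmosome collagen, was at 1.996, 1.54 and 1.40 CPM in SUM44F and at 0.0702 to 0.148 CPM in the variants (log2 change -4.20 ± 0.38 and -3.92 ± 0.33, adjusted p = 1.07e-05 and 4.61e-06). COL27A1, a fibril-forming chain, went from 19.6, 18.4 and 19.99 CPM to between 5.90 and 7.76 (-1.51 ± 0.13 and -1.45 ± 0.12). In MM134 COL26A1 fell in all 4 variants from 2.29, 2.43 and 2.53 CPM to at most 0.632. COL6A1, a chain of microfibrils, rose in all 4 from 0.772, 0.890 and 1.23 CPM to between 1.52 and 3.95 CPM, although its call in LTED-A was lost without MM134 parental 1 or 2 or LTED-A 1 or 3 (log2 change 0.75 to 0.92). COL20A1 rose in all 4 from at most 0.130 CPM to between 0.533 and 1.28 CPM. COL18A1, the endostatin precursor of basement membranes, fell in LTED-A, LTED-B and LTED-E (-1.29, -0.70 and -1.54) and was at 44.2, 45.0 and 46.2 CPM in LTED-D against 39.4, 39.2 and 43.0 in parental cells. On the opposite strand, 18.5% of its exon bases are shared with SLC19A1, and the strand setting of the counting is not stated.

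Further collagens were called in 1 SUM44 variant, all of them down: COL7A1 and COL18A1 in LTED-A, and COL2A1, COL5A1, COL10A1, COL12A1 and COL23A1 in LTED-B. The calls for COL2A1, COL10A1, COL18A1 and COL23A1 were lost without 1 or another library.

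Summed over the class, collagen RNA was at 388.5 CPM ± 13.5 (SD, n = 3) in MM134 parental cells and 222 to 314 CPM in the variants. In SUM44F the sum ranged from 283 to 708 CPM, the highest value being that of SUM44F 1. SUM44 LTED-A was at 192 ± 14.3 (n = 2) and LTED-B at 117 ± 1.66 (n = 3), each below the lowest SUM44F library.

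LAMB3 and LAMA3, a beta and an alpha chain of epithelial laminin, fell in both SUM44 variants. LAMB3 was at 76.7, 69.3 and 56.7 CPM in SUM44F, 10.5 and 11.1 in LTED-A and 6.44, 6.53 and 6.22 in LTED-B. LAMA3 was at 26.5, 26.8 and 24.8 CPM in SUM44F, 6.72 and 6.66 in LTED-A and 14.9, 17.0 and 14.7 in LTED-B. For both chains the highest variant library lay below the lowest SUM44F library. The log2 changes were -2.65 ± 0.13 and -3.40 ± 0.11 for LAMB3 (adjusted p = 1.14e-07 and 5.65e-09) and -1.96 ± 0.10 and -0.75 ± 0.09 for LAMA3 (2.22e-07 and 4.6e-05). The log2 level in LTED-A minus that in LTED-B was -1.21 for LAMA3 and 0.76 for LAMB3 (adjusted p = 0.000998). Both differences were called, but that of LAMB3 was lost without SUM44F 2 or any 1 of the LTED samples (0.70 to 0.82).

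In MM134 both chains rose in LTED-D, and in each of the other variants at most 1 of them was called. LAMB3 was at 3.80, 4.05 and 3.56 CPM in parental cells, 7.15, 7.69 and 7.68 in LTED-A, 13.8, 13.3 and 15.2 in LTED-B, 14.9, 15.2 and 16.7 in LTED-D and 3.31, 2.71 and 3.40 in LTED-E. It rose in LTED-A, LTED-B and LTED-D (log2 change 0.97 ± 0.09, 1.89 ± 0.09 and 2.05 ± 0.09). LAMA3 rose in LTED-D (0.89 ± 0.05) and fell in LTED-E (-0.64 ± 0.05), from 20.6, 19.2 and 20.3 CPM to 36.2, 36.9 and 37.1 in LTED-D and 12.2, 12.1 and 13.9 in LTED-E.

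LAMA3 and LAMB3 both had a RefSeq promoter entry, and the 250 bases before each start are printed to set them side by side. Capitals mark TGANTCA, the letters known as the AP-1 motif, and GGGCGG, the GC box, on either strand. The LAMA3 sequence is chr18:23872770-23873019 on the plus strand and the LAMB3 sequence, before the first of 3 listed starts, chr1:209652426-209652675 on the minus strand (GRCh38.p14). The annotated LAMA3 gene begins at position 23689453, so its window precedes a start inside the gene.

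LAMA3: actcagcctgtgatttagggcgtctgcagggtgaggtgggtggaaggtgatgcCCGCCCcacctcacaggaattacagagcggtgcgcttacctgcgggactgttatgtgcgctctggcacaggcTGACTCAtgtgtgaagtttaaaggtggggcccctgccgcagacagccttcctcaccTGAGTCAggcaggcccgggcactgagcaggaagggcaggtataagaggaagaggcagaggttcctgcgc

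LAMB3: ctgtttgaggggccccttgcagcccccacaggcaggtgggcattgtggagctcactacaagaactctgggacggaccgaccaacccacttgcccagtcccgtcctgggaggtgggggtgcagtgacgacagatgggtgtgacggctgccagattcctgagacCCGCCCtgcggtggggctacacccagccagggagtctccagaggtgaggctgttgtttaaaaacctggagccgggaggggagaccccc

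LAMA3 holds TGANTCA at 125 and 69 bases before its start and GGGCGG at 197. LAMB3 holds GGGCGG at 88 bases before its start and no TGANTCA in this window. Of all 35116 promoters, 6.57% hold TGANTCA and 42.6% hold GGGCGG, and of the 58 members with an entry 3 and 35 do.

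LAMB1, the beta chain of laminin-111 and laminin-411, changed in opposite directions in the 2 lines. It was at 29.9, 30.9 and 31.8 CPM in MM134 parental cells, 117, 121 and 120.1 in LTED-A, 59.6, 61.6 and 63.0 in LTED-B, 200.2, 202 and 205 in LTED-D and 48.3, 47.5 and 50.0 in LTED-E. In SUM44F it was at 252, 251 and 224 CPM, in LTED-A at 26.9 and 27.5, and in LTED-B at 86.4, 87.7 and 85.3. No group overlapped another within either line. The log2 changes were 1.95, 1.00, 2.72 and 0.67 in MM134 (SE 0.03 each, adjusted p of at most 2.73e-12) and -3.15 ± 0.09 and -1.49 ± 0.07 in SUM44 (3.37e-09 and 6.11e-08). The MM134 LTED-D level came within the range from SUM44 LTED-B to SUM44F.

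LAMC1, the gamma 1 chain, fell in LTED-A, LTED-B and LTED-E of MM134 (-1.23, -0.97 and -0.88, SE 0.03 each), from 197, 192 and 192 CPM to between 81.3 and 108 CPM. In LTED-D it was at 154, 148 and 155 CPM. LAMA5, its alpha partner in laminin-511 and laminin-521, fell in LTED-B, LTED-D and LTED-E (-0.87, -0.73 and -0.77, SE 0.06 each) from 127, 136 and 117 CPM to between 67.3 and 80.1. In LTED-A its change was -0.54 and not called, and -0.59 and called without MM134 parental 3 and LTED-D 2. LAMB2 was at 524, 543 and 548 CPM in MM134 parental cells and rose in LTED-B alone (806, 827 and 791 CPM, log2 change 0.59 ± 0.03). That change sits at the fold threshold, and the call was lost with other size factors and with other filters. In SUM44 these chains stayed short of a call: LAMC1 was at -0.58 ± 0.08 in LTED-A (adjusted p = 0.000258), LAMA5 at 0.75 ± 0.13 in LTED-A (adjusted p = 0.00107) and LAMB2 at -0.57 ± 0.10 in LTED-B (adjusted p = 0.000786).

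**Figure D3:**
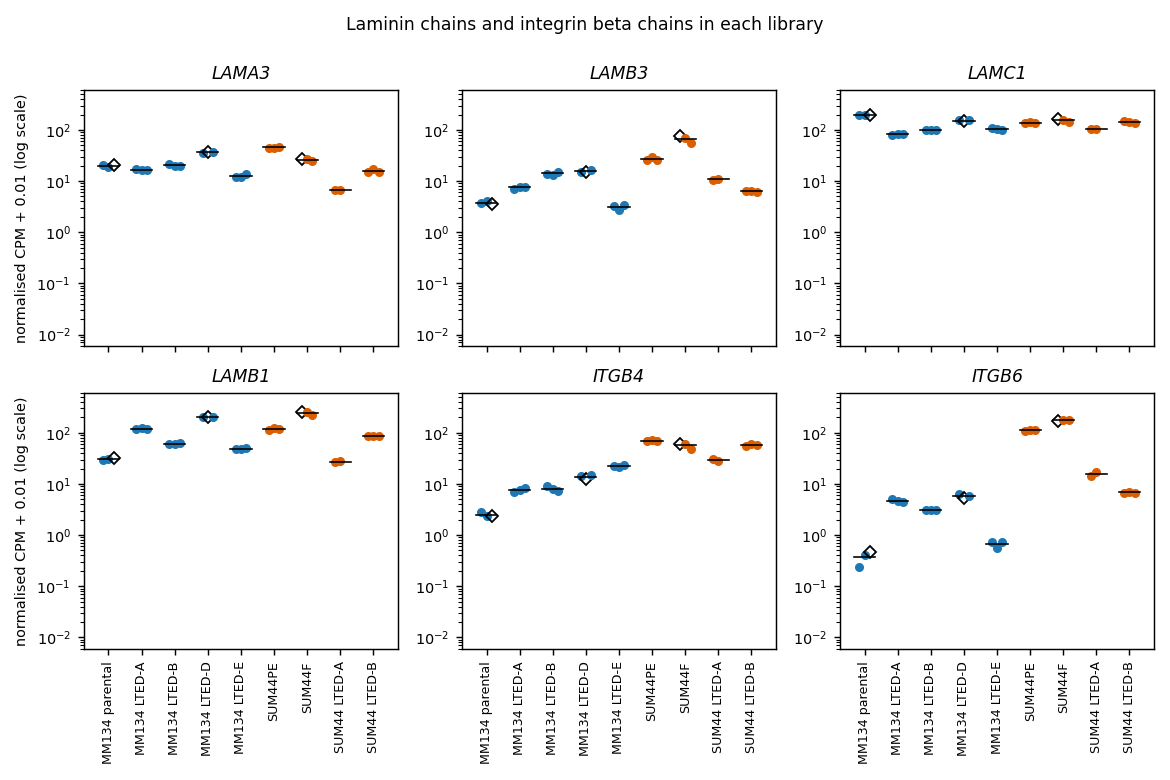
Level of LAMA3, LAMB3, LAMC1, LAMB1, ITGB4 and ITGB6 in every sample by group (y axis, normalised CPM + 0.01 on a log axis, points are samples, diamonds the 3 libraries with stromal markers and bars group means). LAMB1 rises from 30.9 CPM to 202 in MM134 LTED-D and falls from 242 in SUM44F to 27.2 in SUM44 LTED-A.

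Among the integrins that bind laminin, ITGB4, the hemidesmosome subunit, rose in all 4 MM134 variants. It was at 2.80, 2.35 and 2.37 CPM in parental cells, 7.08, 7.74 and 8.20 in LTED-A, 9.01, 8.08 and 7.19 in LTED-B, 14.1, 12.3 and 14.9 in LTED-D and 21.9, 21.4 and 23.6 in LTED-E (log2 change 1.60 ± 0.11, 1.70 ± 0.11, 2.47 ± 0.11 and 3.16 ± 0.10). Its partner ITGA6 fell in LTED-B, LTED-D and LTED-E, from 88.6, 81.2 and 86.0 CPM to 45.3, 44.9 and 46.4, to 36.6, 36.5 and 33.0 and to 51.0, 51.6 and 50.5. The log2 changes of ITGA6 were -0.90, -1.26 and -0.73 (SE 0.04 each). The ITGB4 and ITGA6 changes thus had opposite signs in these 3 variants.

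In SUM44 ITGB4 and ITGA6 fell in 1 variant each. ITGB4 fell in LTED-A from 59.9, 61.3 and 48.3 CPM in SUM44F to 30.9 and 28.5 CPM (-0.93 ± 0.11, and -0.94 without LTED-A 1, where the call was lost) and was at 56.2, 61.0 and 58.9 CPM in LTED-B. ITGA6 fell in LTED-B from 139.8, 139 and 139.8 CPM to 40.3, 39.97 and 41.4 (-1.78 ± 0.07) and was at 92.0 and 107 CPM in LTED-A. ITGA3, another laminin-binding alpha subunit, fell in both (-0.72 ± 0.09 and -1.11 ± 0.08) and in MM134 LTED-A and LTED-D (-0.77 ± 0.04 each). Its call in SUM44 LTED-A was lost without SUM44F 2, LTED-A 1 or LTED-A 2 and 3, with log2 changes of -0.66, -0.67 and -0.72.

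ITGB6, which pairs with ITGAV and is known from epithelia under remodelling, had the largest difference between the lines. In SUM44F it was at 172, 174 and 176 CPM, in LTED-A at 14.1 and 17.2 and in LTED-B at 6.69, 7.09 and 6.71. In MM134 parental cells it was at 0.229, 0.405 and 0.454 CPM, and it was at 4.97, 4.61 and 4.41 in LTED-A, 3.06, 3.02 and 3.08 in LTED-B and 6.23, 5.36 and 5.90 in LTED-D. The LTED-E libraries (0.716, 0.551 and 0.739 CPM) lay above the parental ones, but the change was not called. The log2 changes were -3.47 ± 0.10 and -4.67 ± 0.09 in SUM44 and 3.68 ± 0.16, 3.08 ± 0.17 and 4.02 ± 0.16 in MM134 LTED-A, LTED-B and LTED-D. The 3 libraries of SUM44 LTED-B lay just above those of MM134 LTED-D, where the parental means had been 174 CPM in SUM44F and 0.362 in MM134. On the same strand, 16.7% of the exon bases of ITGB6 are shared with another annotated gene.

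ITGAV and ITGB5 were abundant RGD-binding subunits. ITGAV rose in MM134 LTED-E (0.97 ± 0.03) from 153, 149 and 156 CPM to 302, 288 and 299, and ITGB5 rose in the same variant (1.04 ± 0.02) from 180.2, 176 and 177 CPM to 365, 359 and 362. Both subunits of that receptor thus rose by about the same factor in LTED-E, and neither was called in the other MM134 variants. ITGB5 also rose in SUM44 LTED-B (1.16 ± 0.09) from 68.4, 68.3 and 56.5 CPM to 138, 149 and 145. ITGB1, the common beta subunit, fell in MM134 LTED-A (-0.71 ± 0.03) and was at 264 to 449.8 CPM over the MM134 libraries.

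ITGA5, the fibronectin receptor subunit that pairs with ITGB1, went in both directions within MM134. It was at 0.972, 1.30 and 1.33 CPM in parental cells and 0.241 to 0.603 CPM in LTED-A, LTED-B and LTED-E, but at 16.5, 14.3 and 14.7 CPM in LTED-D. The log2 changes were -1.996 ± 0.21, -1.37 ± 0.21 and -1.61 ± 0.22, and 3.68 ± 0.15 in LTED-D. In SUM44 it rose from 6.94, 5.57 and 4.21 CPM to 19.2 and 18.002 in LTED-A and 23.8, 25.2 and 26.0 in LTED-B (1.75 ± 0.16 and 2.17 ± 0.15, adjusted p = 1.45e-05 and 1.48e-06).

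ITGA4, the alpha subunit that binds VCAM1 and fibronectin, was all but lost in MM134 variants. The parental libraries were at 3.80, 3.56 and 3.27 CPM, 366 counts in all, and the LTED-A, LTED-B and LTED-E libraries held 0 counts. Against a floor of 3 counts over the group, the decrease was at least 246-fold in LTED-A, 149-fold in LTED-B and 165-fold in LTED-E. In LTED-D, 1 count was found, a ratio of 390 (95% counting interval 69.6 to 15446). Of its exon bases, 26.4% are shared with CERKL on the opposite strand.

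The leukocyte-type integrins ITGAL, ITGAM and ITGB2 rose in all 4 MM134 variants. ITGAM was at 0.372, 0.324 and 0.356 CPM in parental cells and at 7.34, 6.98 and 7.94 in LTED-A, 2.90, 3.33 and 3.01 in LTED-B, 6.55, 6.26 and 6.71 in LTED-D and 16.5, 16.1 and 16.9 in LTED-E (log2 change 4.39 ± 0.11, 3.13 ± 0.12, 4.22 ± 0.11 and 5.56 ± 0.10). ITGAL rose by 2.81, 1.65, 2.57 and 2.64, and ITGB2 by 1.08, 0.79, 1.62 and 0.88, to at most 4.18 CPM. In SUM44 ITGAM fell from 45.2, 43.9 and 37.0 CPM to 16.2 and 15.9 in LTED-A and 10.2, 10.9 and 11.2 in LTED-B (-1.38 ± 0.10 and -1.96 ± 0.09). ITGAL and ITGB2 fell in SUM44 LTED-A alone (-1.25 ± 0.15 and -2.55 ± 0.18), and the call for ITGAL was lost without LTED-A 2 and 3 (-1.15). The 6 leukocyte markers, PTPRC and CD3E among them, summed to 0.580 to 1.35 CPM outside the 3 libraries with stromal markers. In those 3 libraries they summed to 1.04 to 7.29 CPM. Any part of leukocyte RNA in these changes was not tested. ITGA9 also rose in all 4 MM134 variants (1.18, 1.49, 1.64 and 1.12, SE 0.08 each), from 3.60, 3.35 and 3.86 CPM. Unlike the leukocyte-type integrins, it rose in SUM44 LTED-B too (1.16 ± 0.10) and had no call in SUM44 LTED-A (0.24 ± 0.11).

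For ITGAX and ITGB3 1 parental library stood far above its replicates. ITGAX ranged from 1.32 to 67.5 CPM over the MM134 libraries, with 2.83, 1.70 and 67.5 CPM in the parental ones, and had no call. Its log2 change in the variants was -2.55 to -0.95 with all libraries and 0.84 to 2.44 without MM134 parental 3 and LTED-D 2. ITGAX also scattered in other groups, with 151, 1130 and 432 counts in MM134 LTED-E and 1352, 1442 and 160 in SUM44F. Leaving out MM134 parental 3 and LTED-D 2 does not remove that scatter. ITGB3 was at 4.58, 0.430 and 0.390 CPM in SUM44F and at most at 0.0247 CPM in the SUM44 variants. Its change was not called with all libraries (-6.90 ± 1.58 and -6.46 ± 1.34, adjusted p = 0.00584 and 0.00271) and was called without SUM44F 1 (-4.82 and -4.37, adjusted p = 0.000583 and 0.000372). ITGB3 shares 33.2% of its exon bases with another annotated gene on the same strand.

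The change in MM134 was set against that in SUM44 by a fit of both lines, by subtracting the mean log2 change of the SUM44 variants from the mean of the MM134 ones. This difference was called for 29 of 80 members, 25 higher and 4 lower (all genes, 20.9% called, 10.8% higher and 10.2% lower). The median over the members was 1.08 and over all genes 0.06. Without the 3 libraries with stromal markers the counts were 22 and 6 (19.7% of all genes called) and the median was 0.72. ITGB6 (6.98 ± 0.15), ITGAM (5.99 ± 0.12), LAMB3 (4.17 ± 0.12), LAMB1 (3.90 ± 0.05), COL9A1 (3.49 ± 0.23) and ITGB4 (2.66 ± 0.12) moved higher in MM134 than in SUM44. ITGA5 (-2.30 ± 0.22), COL2A1 (-1.84 ± 0.14) and LAMA5 (-1.27 ± 0.11) moved lower. By class and with all libraries, 15 of 42 collagens, 5 of 12 laminins and 9 of 26 integrins differed. Some calls moved without the libraries with stromal markers. COL1A1 went from 1.46 with no call to -0.87 with a call, and COL6A3 from 4.72 with no call to 2.02 with a call. COL7A1 lost its call (0.71 to 0.57).

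**Figure D4:**
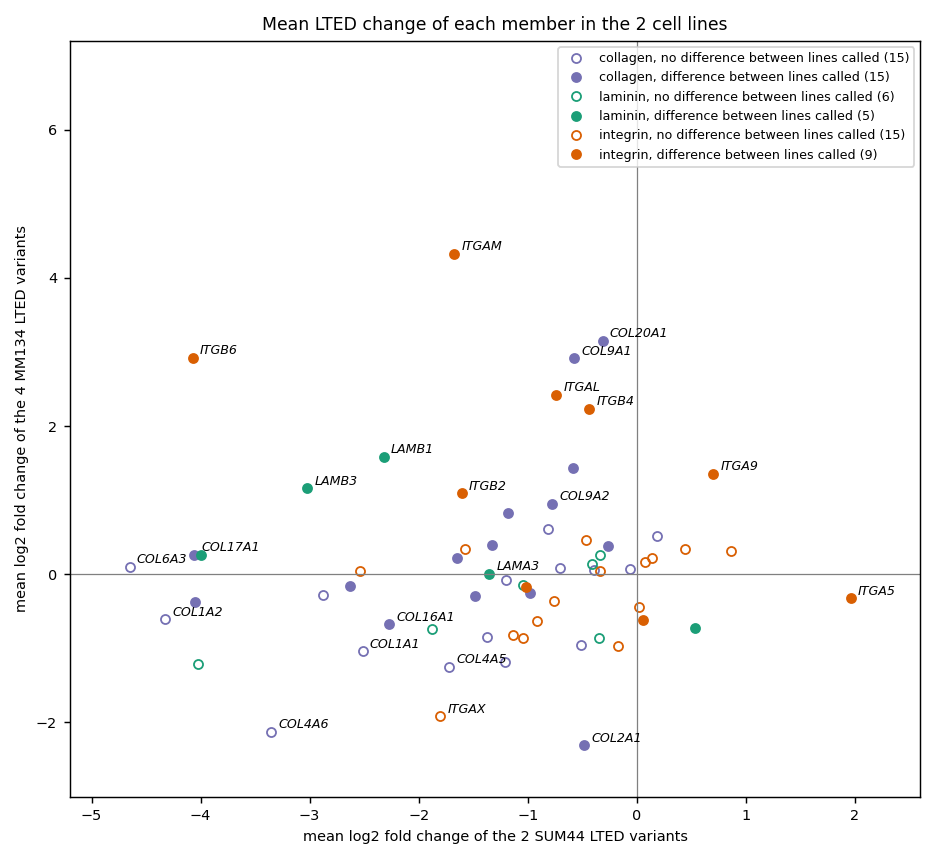
Mean log2 fold change of the 2 SUM44 variants (x axis) against that of the 4 MM134 variants (y axis) for the 65 members tested in both lines, with filled points where the difference between the lines was called (29 members). Of the 65, 29 lie in the quadrant higher in MM134 and lower in SUM44 and 26 in the quadrant lower in both, with 6 higher in both. All libraries enter the figure, and SUM44F 1 sets the SUM44 position of some members. The COL6A3 changes of -4.57 and -4.73 in SUM44 LTED-A and LTED-B were -0.79 and -0.96 without it. No such counts are given for all genes.

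The parental lines also differed. Of 80 members, 13 were higher and 30 lower in MM134 parental cells than in SUM44F (all genes, 38.1% called, 18.9% higher and 19.2% lower). Leaving out the libraries with stromal markers, 15 were higher and 26 lower (35.5% of all genes called). Among the largest differences were ITGB6 (-8.93 ± 0.12), ITGAM (-6.91 ± 0.11), LAMA2 (-6.45 ± 0.72), ITGA2 (-5.86 ± 0.12) and COL26A1 (5.70 ± 0.42). Without the libraries with stromal markers LAMA2 was at -10.76, a fitted value against 0 counts, and COL26A1 at 6.66. COL1A1 went from -0.62 with no call to 1.69 with a call. ITGA2, the collagen-binding subunit, was at 112, 111 and 123 CPM in SUM44F and at 1.97, 2.13 and 1.91 in MM134 parental cells. The MM134 parental libraries enter both this comparison and those of the MM134 variants, and the SUM44F libraries enter this and those of the SUM44 variants.

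Between the 4 MM134 variants, 35 of 71 members differed by more than 1.5-fold between the highest and lowest variant (19.6% of all genes). They were 16 of 35 collagens, 5 of 11 laminins and 14 of 25 integrins. LTED-D stood out in several. COL22A1, a collagen of tissue junctions, was at 8.65, 8.34 and 8.20 CPM in LTED-D and at most at 0.0324 CPM in every other MM134 library, which is 918 counts against 1 in parental cells, a ratio of 861 (95% counting interval 154 to 34063). COL5A1, a type V chain, was at 14.4, 15.6 and 14.3 CPM in LTED-D against 5.60, 5.69 and 5.22 in parental cells (1.43 ± 0.09) and fell in LTED-A (-0.82 ± 0.09). ITGB8, which pairs with ITGAV, was at 21.1, 20.02 and 19.9 CPM in LTED-D and 9.52, 8.93 and 9.95 in parental cells (1.12 ± 0.07), and fell in LTED-A and LTED-B (-1.91 ± 0.07 and -1.47 ± 0.08).

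SUM44 LTED-A and LTED-B differed in 15 of 73 members, 7 higher and 8 lower in LTED-A (all genes, 7.42% called, 3.56% higher and 3.86% lower). Without SUM44 LTED-A 1 the count was 9. LAMA2, the alpha chain of muscle laminin, was at 10.5, 4.08 and 3.90 CPM in SUM44F, 0 and 0.00877 in LTED-A and 5.75, 5.69 and 5.62 in LTED-B. LTED-A held 1 count against 936 in LTED-B, a ratio of 875 (95% counting interval 157 to 34606), and 1042 in SUM44F. The call between the variants was lost without LTED-A 2 and 3, which left only the library with 0 counts. COL12A1, a fibril-associated collagen, was at 47.9, 44.3 and 39.8 CPM in SUM44F, 76.0 and 61.4 in LTED-A and 6.17, 5.09 and 4.70 in LTED-B. It fell in LTED-B (-3.06 ± 0.13) and lay 3.71 ± 0.14 higher in LTED-A. ITGA2, ITGA6 and ITGB6 were higher in LTED-A (1.36, 1.30 and 1.21) and LAMB1, ITGB2, ITGB4, ITGAL and ITGA9 lower (-1.66, -1.89, -0.98, -1.02 and -0.92). Without LTED-A 1 the calls for ITGB4, ITGAL and ITGA9 were lost (-1.02, -1.09 and -0.88).

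**Figure D5:**
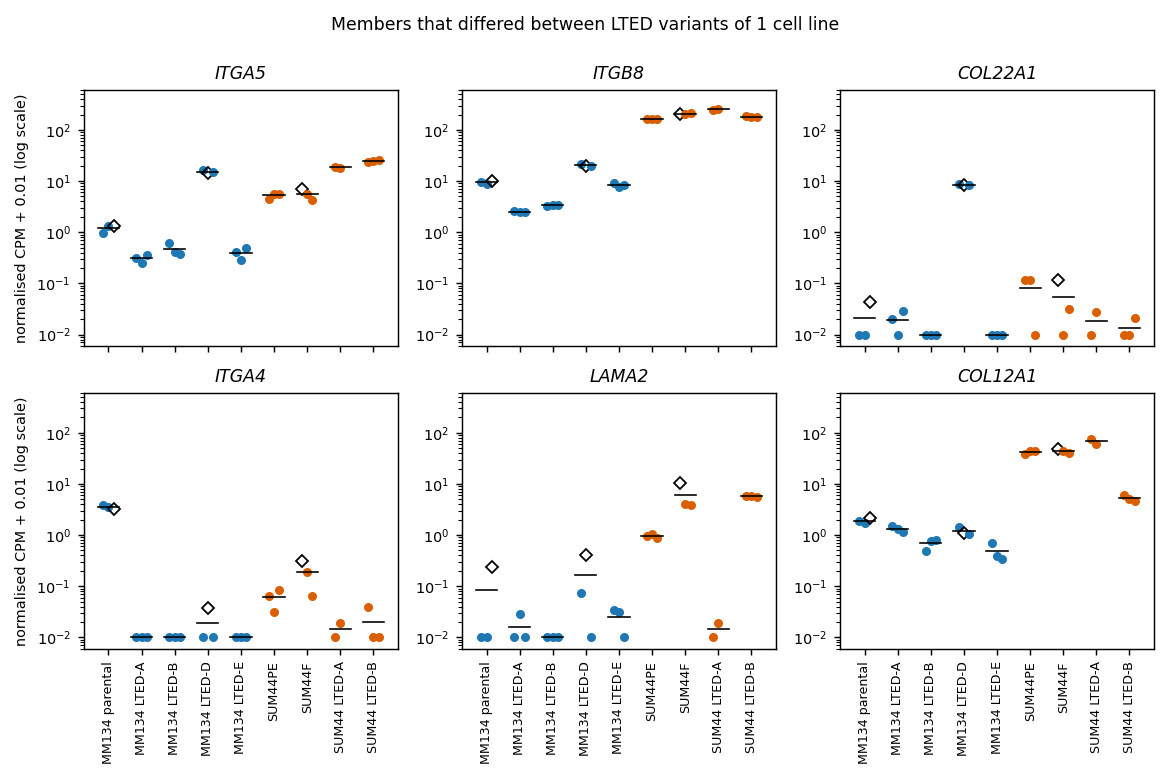
Level of ITGA5, ITGB8, COL22A1, ITGA4, LAMA2 and COL12A1 in every sample by group (y axis, normalised CPM + 0.01 on a log axis, points are samples, diamonds the 3 libraries with stromal markers and bars group means). COL22A1 and ITGA5 are highest among the MM134 groups in LTED-D, ITGA4 is at or near 0 in the 4 MM134 variants, and LAMA2 and COL12A1 separate SUM44 LTED-A from LTED-B.

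SUM44PE and SUM44F, the cells before and after the change of medium, differed in 14 of 74 members, 3 higher and 11 lower in SUM44PE (all genes, 5.57% called, 2.85% higher and 2.72% lower). Without SUM44F 1 the counts were 4 and 10 (5.10% of all genes called). The largest differences were COL17A1 (-2.73 ± 0.35), LAMA2 (-2.70 ± 0.35), COL5A1 (-1.59 ± 0.22), LAMB3 (-1.33 ± 0.10), COL11A2 (-1.12 ± 0.18) and LAMB1 (-1.02 ± 0.06). Without SUM44F 1 LAMA2 was at -2.07. LAMB3 was at 25.4, 29.4 and 26.2 CPM in SUM44PE and LAMB1 at 116, 125 and 121, between SUM44F and the variants. LAMA3 was instead higher in SUM44PE (44.8, 45.2 and 46.8 CPM, 0.80 ± 0.07). The call for COL11A2 was lost without SUM44F 1 (-1.07) and that for COL5A1 without any 1 SUM44PE library (-1.57 to -1.61), and the count was 9 without SUM44PE 1.

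Some members lie in regions where their neighbours shifted too. In MM134 LTED-D the 40 genes nearest to ITGAM had a median log2 change of 0.56, 19 up and 0 down, and those nearest to ITGAL, on the same chromosome arm, 0.57, 20 up and 0 down. Around ITGB8 in LTED-D the median was 0.45 (16 up, 1 down). In SUM44 LTED-A the neighbours of LAMA2 had a median of -0.38 (0 up, 15 down), and in SUM44 LTED-B those of COL10A1 -0.70 (1 up, 20 down). The changes of ITGAM (4.22), ITGAL (2.57) and LAMA2 exceeded those medians. Around ITGA2B in MM134 LTED-B (own change -1.39) the median was -0.26 over 40 genes, 4 up and 17 down, and -0.88 over the nearest 20. For all other called members and variants the median over 40 genes was nearer to 0 than -0.38. The part of these regions in the members' changes was not tested.

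Genes that make, hold or cut collagens and laminins were counted by list, and the shares called are to be read against those of all genes, which were 20.3%, 15.9%, 17.6% and 19.0% in the MM134 variants and 13.7% and 17.3% in SUM44 LTED-A and LTED-B. Of 28 tested collagen processing enzymes, 7 rose and 5 fell in MM134 LTED-A, 3 and 3 in LTED-B, 7 and 3 in LTED-D and 5 and 4 in LTED-E (42.9%, 21.4%, 35.7% and 32.1% called). PLOD2, a lysyl hydroxylase, fell from 19.8 CPM ± 1.15 (SD, n = 3) to between 0.406 and 12.5 CPM, and BMP1, the procollagen C-proteinase, from 6.00 ± 0.447 to between 1.33 and 2.63. In SUM44 1 of 31 rose and 3 fell in LTED-A (12.9%, near the share of all genes), and 10 rose and 5 fell in LTED-B (48.4%). LOXL4, a collagen cross-linking oxidase, fell in both, from 4.66 ± 0.494 CPM to 0.577 ± 0.0226 (n = 2) and 0.662 ± 0.0692 (n = 3). ADAMTS14, a procollagen N-proteinase, also fell in both from 0.386 ± 0.0340 CPM.

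Of the other matrix proteins, 6 of 28 rose and 9 fell in MM134 LTED-A, and between 3 and 4 rose and between 7 and 10 fell in the other variants (39.3% to 53.6% called). NTN4, a laminin-binding netrin, rose from 2.28 ± 0.365 CPM to 39.1 to 113 CPM in the 4 variants, and FBN2, a microfibril protein, fell from 14.8 ± 0.898 to at most 0.305 CPM. In SUM44, 27 were tested, and the 4 calls in LTED-A (14.8%, near the share of all genes) and 7 in LTED-B (25.9%) were all decreases. FREM2, a basement membrane protein, fell from 99.6 ± 6.93 CPM to 4.09 ± 0.780 and 14.8 ± 0.800, and FBLN5, an elastic fibre protein, from 19.6 ± 3.79 to 4.58 ± 0.365 and 3.67 ± 0.209.

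Of 36 integrin adhesion partners, between 8 and 14 rose and between 5 and 7 fell in the MM134 variants (38.9% to 52.8% called). FERMT2, an integrin activator, rose from 14.7 ± 0.936 CPM to between 40.6 and 51.6, and FYN, a kinase at adhesions, fell from 13.6 ± 0.380 to between 0.612 and 1.82 CPM. FYN also fell in both SUM44 variants (-3.14 ± 0.23 and -2.61 ± 0.19), as did NEDD9, an adhesion docking protein (-1.85 ± 0.12 and -4.01 ± 0.12). Of those 36 genes, 6 were called in SUM44 LTED-A (16.7%, near the share of all genes), all of them down, and in LTED-B 1 rose and 8 fell (25.0%).

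Among 16 other collagen and laminin receptors, 2 rose in each MM134 variant and 4 to 6 fell (37.5% to 50.0% called), with CD44 and the collagen endocytosis receptor MRC2 falling in all 4. MRC2 went from 13.6 ± 0.780 CPM to between 0.326 and 2.54. SDC2, a syndecan, fell in SUM44 from 86.6 ± 0.951 CPM to 2.48 ± 0.332 and 0.442 ± 0.0679. CD44 fell in both SUM44 variants too (log2 change -1.33 ± 0.10 and -1.25 ± 0.08). Of 13 metalloproteinases and inhibitors tested in MM134, 1 to 3 rose and 5 to 7 fell (53.8% to 76.9% called), with MMP16 going from 104 ± 5.33 CPM to between 0.478 and 2.35 CPM. TIMP1, an inhibitor, fell in all 4 MM134 variants, from 11.7 ± 0.559 CPM to between 0.0258 and 0.972. In SUM44 3 of 12 rose and 3 fell in each variant (50.0%). MMP16 fell in both (log2 change -1.79 ± 0.13 and -3.26 ± 0.12), as did TIMP1 (-2.73 ± 0.14 and -2.23 ± 0.12).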

How the data were processed

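RNA of parental and LTED cells was sequenced from wells of 6-well plates, in 27 libraries of 9 groups. The library kit kept the strand of total RNA. The authors mapped reads to hg38 and made the deposited estimated counts per gene with Salmon 0.6.0 (Ensembl release 82). Trimming and the strand setting of the counting were not given in the sources used here. Without the setting, reads of a gene and of its antisense partner cannot be told apart.

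Estimated counts were rounded. Symbols, positions and exon lengths came from GENCODE v44 by Ensembl ID (56434 of 60619 genes matched), and 7473 genes had no count in any library. Replicates 2 and 3 of SUM44 LTED-A (chi-square per degree of freedom 0.312, against 2.35 to 58.1 in the other 26 pairs) were averaged. Genes were filtered with filterByExpr, scaled by TMM and tested in R 4.3.3 by the two-sided quasi-likelihood test of edgeR 4.0.16, with p-values adjusted over all genes tested (Benjamini-Hochberg), with 1 fit for MM134 (26061 genes), 1 for SUM44F and its variants (26834), 1 that added SUM44PE (27457) and 1 of both lines (29200). SE values are the log2 fold change divided by the square root of F. A group with at most 3 counts in every library was below detection, and intervals on counts cover counting error only. Scripts were tested on simulated counts. Replicate numbers did not pair the wells, so the fits had no block for them.

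The members and all gene lists were chosen with earlier results of these data known. Named members were those DE in at least 3 MM134 variants or in both SUM44 variants or with opposite directions in the lines. The leading members per kb, partner chains and the 6 largest differences between parental groups were named too. Of each related list other than the luminal markers, the 2 genes with the largest median change were named. COL3A1, COL6A3, COL10A1, COL22A1, COL23A1, COL24A1 and ITGA2B were picked after their values were seen. Counts cover all members, but the results of 1 member that this rule selects are not reported here. Alternatives were DESeq2 1.42.0, other size factors, filters, depths and thresholds, and leaving out libraries. Promoters came from RefSeq (58 of 82 members had an entry). Figures were drawn with matplotlib 3.10.9.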

Additional observations from a re-analysis of the deposited data

Results flagged for a closer look

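These results are given for a closer look because the effect differed between groups under the same contrast, by a test of the difference itself. Between the cell lines, 29 members differed in their change. Those called in opposite directions in at least 3 MM134 variants and both SUM44 variants were 6. They were ITGB6 (6.98 on the log2 scale, MM134 change minus SUM44 change), ITGAM (5.99), LAMB3 (4.17), LAMB1 (3.90), COL9A2 (1.72) and ITGA5 (-2.30). All 6 signs were the same without the 3 libraries with stromal markers. Other members had opposite calls in fewer variants. Among them, ITGAL, ITGB2 and ITGB4 rose in all 4 MM134 variants and fell in SUM44 LTED-A.

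Among the MM134 variants 35 members differed. The widest spans from the lowest to the highest variant were those of COL22A1 (11.59, a fitted value against groups with almost no counts and not a bound) and, of the members above detection in every variant, ITGA5 (5.67). Both were highest in LTED-D. Between SUM44 LTED-A and LTED-B 15 members differed, with LAMA2 lower in LTED-A (-9.40, fitted against 1 count) and COL12A1 higher (3.71).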

How the results depend on the processing

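Of 249 named values that passed the test, none changed its sign under any alternative, and 33 lost the call under at least 1 alternative, 30 of them (in 22 members) without 1 library and 6 without the libraries with stromal markers, an alternative chosen after seeing the data. With no filter on low counts, 35 members were called in SUM44 LTED-A, 43 in LTED-B, 28 in both and 26 between SUM44PE and SUM44F. A fold minimum of 2 left 19 in MM134 LTED-B, 18 in LTED-E, 13 shared by at least 3 MM134 variants and 6 between SUM44PE and SUM44F. An adjusted p under 0.05 gave 42 in SUM44 LTED-A, 45 in LTED-B, 35 in both and 23 between SUM44PE and SUM44F. DESeq2 called 25 in SUM44 LTED-A and 31 in LTED-B. Shares of all genes are not given for the settings of this section, so its counts cannot be set against them.

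Leaving out 1 library gave between 27 and 30 members in MM134 LTED-A, between 29 and 32 in LTED-B, between 26 and 30 in LTED-D, 28 to 29 in LTED-E, 16 to 22 in SUM44 LTED-A, 19 to 26 in SUM44 LTED-B, 34 to 36 among the MM134 variants and 26 to 33 between the lines. Between SUM44 LTED-A and LTED-B it gave 9 (without LTED-A 1) to 16, and between SUM44PE and SUM44F 9 (without SUM44PE 1) to 14. With a replicate block, 29, 30, 28 and 28 members were called in the MM134 variants and 23 and 24 in the SUM44 variants, no count moving by over 1.5 times. Same-numbered wells did not deviate together (r -0.482 to 0.352 in MM134, with 8 of 30 pairs above 0.1). With a window of 20 genes, 5 changes in place of 3 had neighbours with a median beyond 0.5. The cause of these differences was not tested, except that stricter thresholds call fewer genes by construction. Depth limits the members near 1 CPM most.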
